A study of Mus musculus with 10 samples.

Results

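The genes of cellular iron uptake, storage and export were followed in mouse bone marrow neutrophils with and without lipocalin 2. They were 33 listed genes of iron transport, storage, sensing, haem breakdown and iron-sulphur cluster assembly. Of these, 32 had a probe set that names a single gene, out of 19938 such genes on the array, and 29 passed the filter on low signals and were tested, out of 14070 genes tested in all. Slc11a1 was listed but had no such probe set, and Hamp, Heph and Cp were measured but too dim to be tested. The genes were listed by function, with earlier results of these data known.

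Mammalian cells take up iron mainly as transferrin through the transferrin receptor, reduce it in the endosome and pass it to the cytosol and to mitochondria, where haem and iron-sulphur clusters are made. Spare iron is held in the ferritin shell, and ferroportin (Slc40a1) is the exporter. The iron regulatory proteins, encoded by Aco1 and Ireb2, bind iron-responsive elements in mRNAs such as those of ferritin and the transferrin receptor and mostly change translation or mRNA decay. Lipocalin 2, encoded by Lcn2, is a neutrophil granule protein that binds bacterial siderophores, the small molecules with which bacteria capture iron. The study asked what its loss does in resting and in stimulated neutrophils, and the iron genes bear on the question of whether iron handling differs without it.

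RNA was measured on 10 Affymetrix arrays, labelled as neutrophils of C57bl/6 female mice aged 10 weeks. Cells flushed from tibia and femur were freed of red cells by lysis and enriched on a Percoll gradient, so they were enriched and not sorted. Each genotype, wild type and Lcn2 knockout, had 3 arrays of unstimulated cells and 2 of cells held for 20 minutes at 37 °C with 10 µM fMLP, a formylated peptide that attracts and activates neutrophils. The labels do not say how the knockout allele was made, whether the unstimulated cells were also warmed, or whether replicates were separate mice, so p-values measure the spread between these arrays, which may be technical.

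The arrays fell into array set 1 (unstimulated replicates 1 and 2 of both genotypes, interquartile range of all probe sets 1.64 to 1.68 on the log2 scale) and array set 2 (the other 6 arrays, 2.47 to 2.59). Lcn2 itself checked the genotype labels: across the 5 wild type arrays it ran from 13.88 to 14.16, and across the 5 knockout arrays from 8.09 to 9.60. The 12 neutrophil markers, S100a8 and Ly6g among them, had a median of 12.29 to 13.80 on every array, and 9 erythroid markers with a probe set (of 15 listed) had a median of 8.74 to 10.48. The brightest erythroid markers were Car1, at 11.10 to 13.22, and Slc4a1, at 10.20 to 12.48. B cell markers had a median of 9.20 to 11.27, and T and NK cell markers one of 7.55 to 9.04. RMA signals have no zero, so no marker can be called absent. Replicate 2 of the fMLP-treated knockout stood apart: set against the mean of its 3 fellow fMLP arrays, 9 of 9 measured neuron markers were higher (median difference 4.02) and 12 of 12 neutrophil markers were lower (median difference -0.55). The labels give all mice as female, but the Y-linked gene Eif2s3y read 9.83 and 9.59 on unstimulated replicate 3 of wild type and knockout, against 5.36 to 7.22 elsewhere. Xist, the X-inactivation RNA, read 6.88 and 6.94 on those same arrays, 7.73 to 7.82 on set 1 and 9.83 to 11.12 after fMLP. Replicate 3 holds both genotypes, so this split runs across stimulation and not across genotype.

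The members' signals split by array set before they split by genotype or stimulation. The unstimulated arrays of set 2 were replicate 3 of each genotype, which read high for Eif2s3y. Among the unstimulated arrays alone, set and sex therefore cannot be told apart. Among the unstimulated arrays, 21 of 29 tested members were higher on set 2 than on set 1, with a median of 0.92. Of all tested genes 7340 of 14070 were higher, with a median of 0.09. The members ranged from -1.37 for Flvcr2, a haem transporter of the FLVCR family, to 2.73 for Ncoa4, the receptor that carries ferritin to lysosomes. The fMLP arrays other than knockout replicate 2 are also of set 2, but read low for Eif2s3y (5.36 to 5.44). On them Ncoa4 read 11.95 to 12.03, against 12.05 and 12.06 on unstimulated replicate 3 and 9.05 to 9.53 on set 1. Flvcr2 read 6.99 to 7.17, against 7.08 and 7.04 and against 8.34 to 8.57. Those fMLP arrays differ in stimulation too, and the part of sex was not tested. Slc40a1 lay between 9.06 and 9.48 on the 4 arrays of set 1 and between 10.43 and 11.92 on set 2. The dim members ran the other way: Hamp, the hormone hepcidin, read 6.98 to 7.43 on set 1 and 5.85 to 6.18 on set 2, and Heph and Cp, ferroxidases that work beside ferroportin, read 7.72 to 7.85 against 6.86 to 7.14 and 7.33 to 7.57 against 6.40 to 6.68. The main fits below therefore carry the array set as a term, and the fMLP comparison averaged over genotype is one within set 2. Differences between single arrays or pairs, fits to 1 array set and some alternative fits carry no such term. The term is additive, so it does not correct the difference in interquartile range between the sets.

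**Figure D1:**
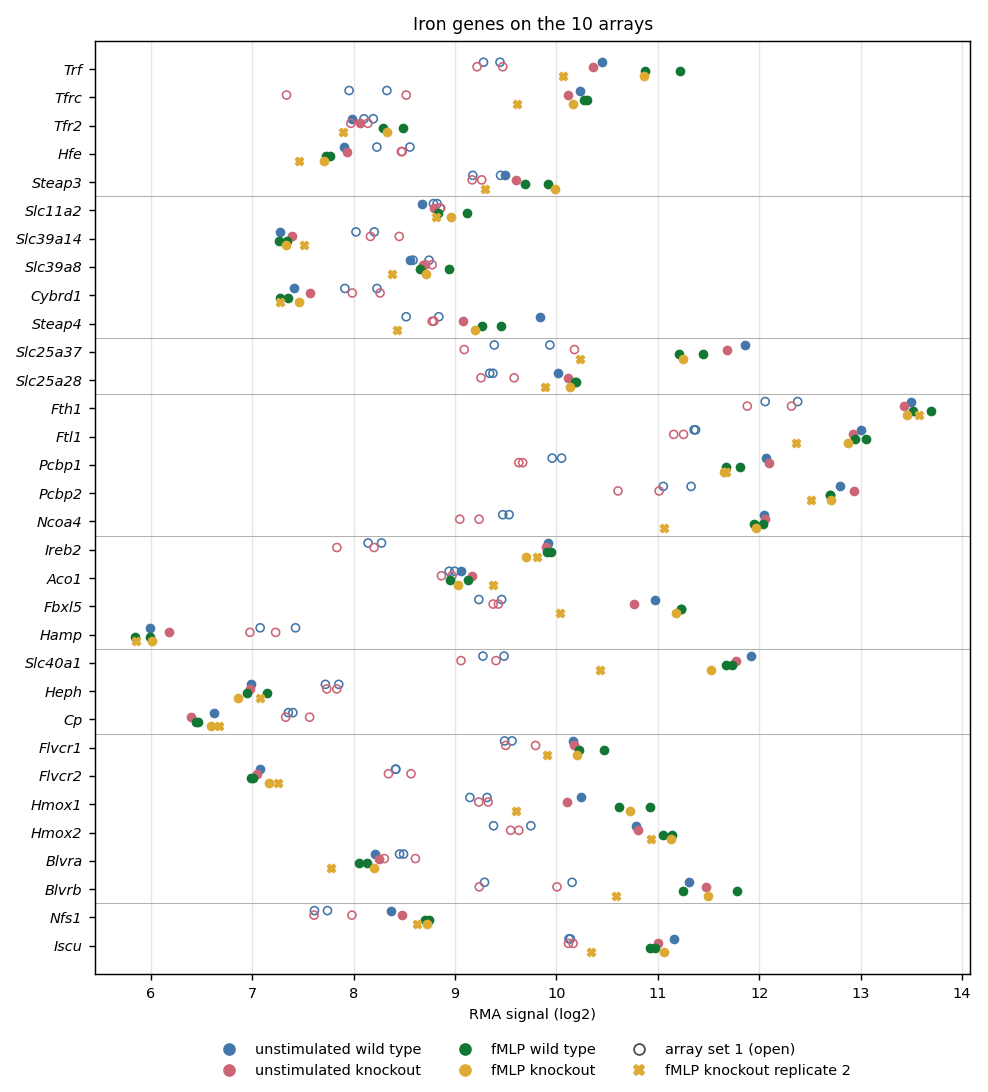
RMA signal (log2, horizontal axis) of the 32 measured iron genes on each of the 10 arrays, ordered by role, with grey lines between roles. Open points are array set 1, filled points array set 2 and crosses fMLP knockout replicate 2; for most genes the open and filled points lie apart while the genotypes overlap, as for Slc40a1 at 9.06 to 9.48 against 10.43 to 11.92.

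In unstimulated cells no iron gene passed the test for a difference between knockout and wild type. Of the 29 tested members 0 reached an unadjusted p below 0.05 in limma, against 75 of 14070 tested genes. At an adjusted p below 0.05 limma called 0 members. The background was 0.00711% of all tested genes, a single gene, Lcn2 itself (knockout minus wild type -5.39 on the log2 scale, SE 0.33, adjusted p = 0.00266). The members' median difference was -0.03, with 17 of 29 below 0, against a median of 0.01 and 45.4% below 0 over all tested genes. With array set 1 alone, which leaves out the replicates 3, again 0 of 29 were called and the median was -0.02. Below 0 lay 15 of 29, against 47.2% of all tested genes. There 2 members, Ncoa4 and Pcbp1, had an unadjusted p below 0.05 in limma, against 389 of 14070 tested genes. In a bulk sample, fewer cells of a type and less RNA per cell cannot be told apart.

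The 3 members furthest from 0 at rest, Ncoa4, Pcbp1 and Pcbp2, were genes of iron storage, and none passed the test. Ferritin is built of heavy chains (Fth1), which oxidise iron, and light chains (Ftl1), the poly(rC)-binding proteins Pcbp1 and Pcbp2 deliver iron to it, and Ncoa4 takes it to the lysosome. All 5 lay below 0 in the knockout, from -0.10 for Fth1 to -0.24 for Ncoa4, against 45.4% of all tested genes below 0. Ncoa4 read 9.53, 9.47 and 12.05 on wild type replicates 1, 2 and 3 and 9.24, 9.05 and 12.06 on the knockout (difference -0.24, SE 0.21, adjusted p = 1). The genotypes were apart on set 1 and level on replicate 3. A second probe set of Ncoa4 gave -0.27.

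Pcbp1 behaved alike, at 9.96, 10.05 and 12.06 in wild type against 9.63, 9.67 and 12.10 in the knockout (-0.23, SE 0.11, 95% interval -0.47 to 0.02, unadjusted p = 0.0683 and adjusted p = 1 in limma). Pcbp2 read 11.05, 11.33 and 12.80 against 10.61, 11.01 and 12.93 (-0.21, SE 0.16, adjusted p = 1). For these 3 genes the 2 knockout arrays of set 1 lay below both wild type arrays of that set. The genes were picked by their differences on arrays that include these, so the split adds no support. Its share over all tested genes was not counted. On replicate 3 alone the differences were 0.01 for Ncoa4, 0.04 for Pcbp1 and 0.14 for Pcbp2, so their direction did not hold within set 2. With set 1 alone they were -0.36 (unadjusted p = 0.024), -0.36 (unadjusted p = 0.0197) and -0.38 (unadjusted p = 0.0545) in limma, with adjusted p = 1 for each.

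Of the import genes, Steap4, a metalloreductase that reduces iron and copper, differed most at rest. It read 8.52, 8.84 and 9.84 in wild type and 8.79, 8.78 and 9.08 in the knockout (-0.18, SE 0.24, adjusted p = 1). The difference came from replicate 3, and without that replicate of either genotype it was 0.10. The metal transporters Slc11a2 (DMT1), Slc39a14 (ZIP14) and Slc39a8 (ZIP8) and the reductase Cybrd1 were 0.07 to 0.17 higher in the knockout. Slc39a14 had the largest of these (0.17, 95% interval -0.09 to 0.42), and none passed the test.

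Transferrin uptake gave no difference at rest beyond the spread. Tfrc, the transferrin receptor, read 7.96, 8.33 and 10.23 in wild type and 7.34, 8.52 and 10.12 in the knockout (-0.18, 95% interval -0.84 to 0.48). Trf (transferrin), Tfr2 (the second receptor), Hfe, which binds the receptor, and Steap3, the endosomal ferrireductase, lay between -0.04 and 0.07. For Tfrc the pairs of replicate 1 and replicate 2 pointed opposite ways (-0.62 and 0.19).

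Haem handling and the mitochondrial genes were as close. Hmox1, the inducible haem oxygenase, differed by -0.01 (95% interval -0.60 to 0.57), and Hmox2, Flvcr1, Flvcr2, Blvra and Blvrb, which are the constitutive oxygenase, the FLVCR transporters and the biliverdin reductases, lay between -0.01 and 0.08. Flvcr1 and Iscu have a further probe set each, and these differed in sign at rest (0.08 and -0.05 for Flvcr1, -0.04 and 0.16 for Iscu). The mitochondrial iron importers Slc25a37 (mitoferrin 1) and Slc25a28 (mitoferrin 2) stood at -0.08 and 0.07, and the cluster genes Nfs1, a cysteine desulphurase, and Iscu, the scaffold, at 0.11 and -0.04. Among the sensors, Aco1 and Fbxl5, the ubiquitin ligase subunit that degrades Ireb2 protein when iron is ample, stood at 0.00 and -0.03.

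Same-number arrays of the 2 genotypes make 5 pairs. In 4 of 29 tested members the knockout was lower in all 5 pairs, against 7.05% of all tested genes, and in 0 of 29 it was higher in all 5, against 6.3% of all tested genes. The 4 were Fth1, Ftl1, Ireb2 and Slc40a1, both ferritin chains, a regulator of ferritin mRNA and the iron exporter. The last pair holds fMLP knockout replicate 2, and 26 of 29 tested members were lower in it, against 59.4% of all tested genes. Over the first 4 pairs the same 4 of 29 were lower throughout, against 8.28% of all tested genes. Cybrd1 was higher in all of the first 4, as 1 of 29 members, against 10.5% of all tested genes. A sign in each pair says nothing of size, and the sizes were small outside the last pair.

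Fth1 read 12.06, 12.38 and 13.49 in unstimulated wild type, 11.88, 12.32 and 13.42 in the unstimulated knockout, 13.51 and 13.69 in wild type after fMLP and 13.45 and 13.58 in the knockout after fMLP. The pair differences were -0.18, -0.06, -0.07, -0.06 and -0.11, while the unstimulated arrays of a genotype spanned more than 1. Over both states the fitted difference was -0.09 (SE 0.11, 95% interval -0.35 to 0.16, adjusted p = 0.679 in limma).

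Ftl1 read 11.36, 11.37 and 13.002 against 11.16, 11.25 and 12.92 at rest, and 12.94 and 13.05 against 12.88 and 12.37 after fMLP. Its pair differences were -0.20, -0.12, -0.08, -0.06 and -0.69. Over both states Ftl1 had the lowest p of the members in limma (-0.25, SE 0.11, 95% interval -0.50 to -0.01, unadjusted p = 0.0427, adjusted p = 0.531), and without fMLP knockout replicate 2 the difference was -0.13 (95% interval -0.29 to 0.03, adjusted p = 0.99). Ferritin genes have near-identical copies in the mouse genome, and 4 further probe sets name Ftl1 together with other genes, so its signal may be shared, which was not tested.

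Ireb2 read 8.14, 8.28 and 9.92 in unstimulated wild type and 7.84, 8.20 and 9.89 in the knockout, then 9.95 and 9.91 against 9.70 and 9.81 after fMLP. Its pair differences ran from -0.31 to -0.02, and the fitted difference over both states was -0.15 (SE 0.09, adjusted p = 0.531) with every array and -0.18 (95% interval -0.39 to 0.03, adjusted p = 0.99) without fMLP knockout replicate 2. Slc40a1 read 9.28, 9.48 and 11.92 against 9.06, 9.40 and 11.77 at rest, and 11.68 and 11.73 against 11.52 and 10.43 after fMLP. Its pairs differed by -0.22, -0.08, -0.15, -0.15 and -1.30, so the last pair was the odd one. The fitted difference was -0.44 (SE 0.20, adjusted p = 0.531) with that array and -0.16 (SE 0.09, 95% interval -0.37 to 0.05, adjusted p = 0.99) without it.

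**Figure D2:**
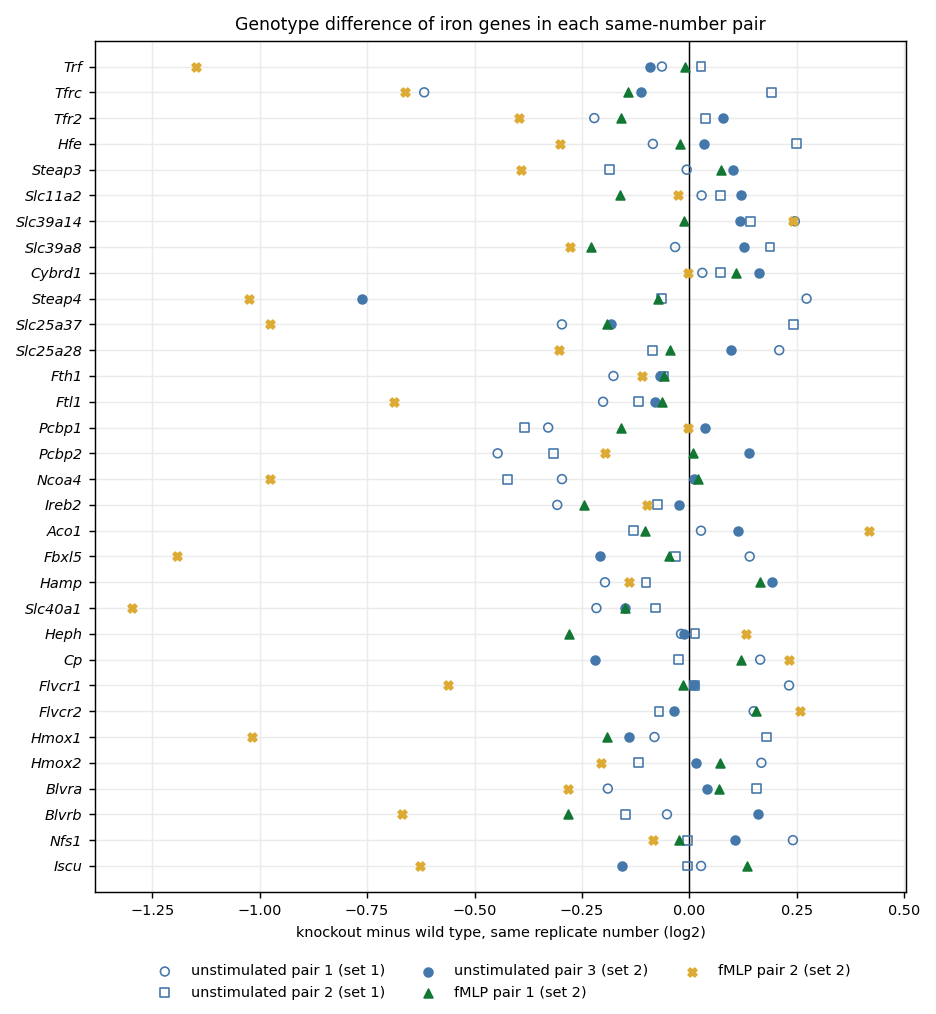
Knockout minus wild type (log2, horizontal axis) of each measured iron gene in the 5 same-number pairs; points left of 0 are lower in the knockout. Points of the 3 unstimulated pairs and of fMLP pair 1 mostly lie near 0, and the crosses of fMLP pair 2 reach -1.30 at Slc40a1.

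The 120 bases before the transcription start of 3 of these 4 genes are shown because these genes shared a sign in every pair. They are RefSeq sequence in the GRCm38.p6 build, written 5′ to 3′ on the gene's own strand. Capitals mark CCAAT or its reverse complement ATTGG, the box of NF-Y, and GGGCGG or its reverse complement CCGCCC, the GC box of Sp1-type factors. No match overlaps another in these windows.
Fth1 (chr19:9982526-9982645, plus strand): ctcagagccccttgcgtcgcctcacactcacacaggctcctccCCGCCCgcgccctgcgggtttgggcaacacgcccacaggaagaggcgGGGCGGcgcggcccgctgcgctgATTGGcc
Ftl1 (chr7:45459887-45460006, minus strand): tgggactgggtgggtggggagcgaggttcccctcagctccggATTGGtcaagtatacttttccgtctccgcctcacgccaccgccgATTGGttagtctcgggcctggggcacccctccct
Ireb2 (chr9:54863635-54863754, plus strand): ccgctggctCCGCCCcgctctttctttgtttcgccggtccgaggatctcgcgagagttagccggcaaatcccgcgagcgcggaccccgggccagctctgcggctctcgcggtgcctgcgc
Fth1, shown at the downstream of its 2 listed starts, has 1 CCAAT box and 2 GC boxes there and neither before its other start, Ftl1 has 2 CCAAT boxes and Ireb2 has 1 GC box. Of 32851 promoters in the table, 21.3% held a CCAAT box in the same 120 bases and 26.5% a GC box. The table holds 39 promoters of 24 members, and 7 of these 39 (17.9%) held a CCAAT box and 17 (43.6%) a GC box. Starts of the same gene count separately in these shares, and the 32851 promoters were not limited to tested genes. By gene, 7 of 24 members held a CCAAT box and 15 of 24 a GC box. No member's transcription is read from these matches.

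After fMLP, 0 of 29 members were called between the genotypes (background 0.00711%, again Lcn2, -5.14, SE 0.41, adjusted p = 0.0189). An unadjusted p below 0.05 in limma was reached by 2 members, against 1182 of 14070 tested genes. Of all tested genes 56.7% lay below 0, and 51.5% did without fMLP knockout replicate 2. The members' median was -0.17, with 25 of 29 below 0, against a median of -0.05 over all tested genes. Its size rested on a single array. Without fMLP knockout replicate 2 the median was -0.04, with 21 of 29 below 0, 0 called and 0 at an unadjusted p below 0.05. Without replicate 1 instead, which leaves replicate 2 as the sole knockout array, 13 of 29 were called, against 45.5% of all tested genes. The members' share is near that background.

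The largest differences after fMLP were of Slc40a1 (-0.72, SE 0.31, unadjusted p = 0.0449, adjusted p = 0.416), Fbxl5 (-0.62, SE 0.31), Hmox1 (-0.60, SE 0.31) and Slc25a37 (-0.58, SE 0.41). Fbxl5 read 11.23 on both wild type fMLP arrays against 11.18 and 10.03 in the knockout, after 9.24, 9.46 and 10.97 and 9.38, 9.43 and 10.76 at rest. Slc25a37 read 11.44 and 11.21 against 11.25 and 10.23, after 9.39, 9.94 and 11.86 and 9.09, 10.18 and 11.68 at rest. In each of these genes knockout replicate 1 lay close to the wild type arrays and replicate 2 far below. Without replicate 2 the 4 differences were -0.18, -0.05, -0.04 and -0.07, with adjusted p = 1 for each.

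On that array 25 of 29 members lay below the mean of the other 3 fMLP arrays, against 59.9% of all tested genes. The members more than 0.5 below numbered 12 of 29, against a background of 26%, and 0 lay more than 0.5 above. They were Slc40a1 (-1.21), Fbxl5 (-1.18), Hmox1 (-1.15), Slc25a37 (-1.07), Blvrb (-0.93), Ncoa4 (-0.92), Trf (-0.91), Steap4 (-0.88), Tfrc (-0.64), Iscu (-0.64), Ftl1 (-0.59) and Steap3 (-0.57). Fth1, in contrast, read 13.58 there, within the 13.45 to 13.69 of the others. Every marker list but that of neurons moved down there too. Erythroid markers were lower in 8 of 9 (median difference -0.92), monocyte and macrophage markers in 13 of 13 (-0.59) and B cell markers in 9 of 9 (-0.93). Eosinophil and basophil markers were lower in 10 of 10 (-0.68), T and NK cell markers in 9 of 9 (-0.64) and neutrophil markers in 12 of 12 (-0.55). The median erythroid marker of an array was 8.78 to 10.17 in unstimulated wild type, 8.74 to 10.16 in the unstimulated knockout, 9.94 to 10.48 in wild type after fMLP and 9.68 to 10.19 in the knockout after fMLP. The part of these cells in the members' values was not tested.

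Averaged over both states, 0 of 29 members were called between genotypes (background 0.00711%, Lcn2). Of the members 1, Ftl1, had an unadjusted p below 0.05 in limma, against 773 of 14070 tested genes. The members' median was -0.15, with 24 of 29 below 0, against a median of -0.02 and 53.5% below 0 over all tested genes. Without fMLP knockout replicate 2 the members' median was -0.03, with 17 below 0, against 48.6% of all tested genes below 0. Without replicate 1 instead, 11 of 29 were called, against 40% of all tested genes. The members furthest from 0 were Slc40a1 (-0.44), Steap4 (-0.37, SE 0.19), Ncoa4 (-0.36, SE 0.17) and Slc25a37 (-0.33, SE 0.27), with an adjusted p of 0.531 to 0.562. Without that array they were -0.16, -0.17, -0.13 and -0.08. All 5 storage genes still lay below 0 then, at -0.10 to -0.16, and none passed the test.

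The response to fMLP, averaged over genotype, was read within array set 2, as 4 fMLP arrays against 2 unstimulated ones. Those 2 are the arrays with high Eif2s3y and low Xist, so within set 2 stimulation and the difference in sex that these genes mark cannot be told apart, for any member. With every array, 0 of 29 members were called, against 0.341% of all tested genes. An unadjusted p below 0.05 was found in 2056 of 14070 tested genes and in 1 member. It was Pcbp1 (-0.38, SE 0.11, unadjusted p = 0.00953 and adjusted p = 0.182 in limma). The members' median was 0.01 and that of all tested genes -0.02. Without fMLP knockout replicate 1, 7 of 29 were called, against 28.8% of all tested genes. The members furthest from 0 were Slc25a37 (-0.73, SE 0.36), Slc40a1 (-0.51, SE 0.27), Pcbp1 and Steap4 (-0.38, SE 0.25). Steap4 read 9.27 and 9.45 in wild type and 9.20 and 8.43 in the knockout after fMLP, against 9.84 and 9.08 on unstimulated replicate 3. Without fMLP knockout replicate 2 it was -0.18, and without unstimulated wild type replicate 3 it turned to 0.06.

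Without fMLP knockout replicate 2, a choice made after the data were seen, 2 of 29 members passed the test and both rose with fMLP, against 6.36% of all tested genes that rose and 10.1% that were called in either direction. These were Hmox1 and Trf. The members' share is near that background. Hmox1 breaks haem down to iron, carbon monoxide and biliverdin, and Trf carries iron between cells.

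Unstimulated, Hmox1 read 10.25 and 10.11 in set 2 (wild type, then knockout); it read 10.92 and 10.62 in wild type after fMLP and 10.73 in knockout replicate 1. The 3 fMLP arrays lay above both unstimulated ones, and the array left out read 9.60. The rise was 0.57 (SE 0.12, 95% interval 0.31 to 0.83, adjusted p = 0.0143 in limma). On set 1 Hmox1 read 9.15 to 9.33.

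Trf read 10.45 and 10.36 unstimulated, 10.87 and 11.22 in wild type after fMLP and 10.86 in knockout replicate 1, and 10.07 on the array left out; on set 1 it read 9.22 to 9.47. It too had no overlap between states among the arrays kept. Hmox1 and Trf were picked by their calls on these same arrays, so the lack of overlap adds no support to them. Its share over all tested genes was not counted. The rise was 0.55 (SE 0.13, 95% interval 0.26 to 0.83, adjusted p = 0.0258). Over the alternatives the adjusted p ran from 0.00439 to 0.219 for Hmox1 and from 0.00735 to 0.251 for Trf.

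Both calls needed the unstimulated arrays of replicate 3, which carry the set 2 baseline and read high for Eif2s3y and low for Xist (6.88 and 6.94, against 10.97 to 11.12 on the fMLP arrays kept). A rise with fMLP and a difference by sex cannot be told apart here for Hmox1 or Trf. Without the unstimulated wild type replicate 3 the adjusted p was 0.12 for Hmox1 and 0.219 for Trf, and without the knockout replicate 3 it was 0.219 and 0.251. Trf also lost its call without fMLP wild type replicate 2 (0.46, adjusted p = 0.0673). Both calls were lost after quantile normalization again (adjusted p = 0.156 and 0.205) and with no array set term, where set 1 enters the baseline (1.19 and 1.25, adjusted p = 0.207 for both). With every array included the values were 0.29 (adjusted p = 0.667) and 0.35 (adjusted p = 0.503).

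The genotypes did not differ detectably in these 2 responses. In wild type Hmox1 rose by 0.59 (adjusted p = 0.0356) and Trf by 0.62 (adjusted p = 0.0418), and in the knockout, with its single remaining fMLP array, the values were 0.56 (adjusted p = 0.11) and 0.47 (adjusted p = 0.214). The difference of the responses was -0.03 (95% interval -0.44 to 0.38) for Hmox1 and -0.14 (95% interval -0.59 to 0.31) for Trf. These intervals do not show that the responses were alike. Values per genotype and their difference also draw on set 1, because the set term is shared by both genotypes. With array set 2 only, the wild type rise was 0.52 for Hmox1 and 0.59 for Trf. Unstimulated knockout replicate 3 read 10.11 for Hmox1 and 10.36 for Trf, against 10.73 and 10.86 on fMLP knockout replicate 1. The sign of the Hmox1 difference of -0.03 is therefore not a result within set 2.

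Other markers moved between the same arrays. Of the T and NK cell markers 5 of 6 tested were called higher (median 1.06), of the B cell markers 6 of 9 were higher and 1 lower (0.64), of the eosinophil and basophil markers 7 of 8 were lower (-1.43), and of the monocyte and macrophage markers 1 of 11 was higher and 5 lower (-0.41). Erythroid markers had 1 of 9 higher and 0 lower (0.25), and neutrophil markers 1 of 12 lower (-0.12). Whether the cell mixture had a part in the rise of Hmox1 and Trf was not tested.

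The next members by p without that array did not pass. They were Pcbp1 (-0.39, adjusted p = 0.0572), Tfr2 (0.34, adjusted p = 0.0731), Fbxl5 (0.34, adjusted p = 0.0761), Steap3 (0.35, adjusted p = 0.097) and Hmox2 (0.32, adjusted p = 0.123). Ferritin stood at 0.07 for Fth1 (95% interval -0.25 to 0.39) and -0.02 for Ftl1 (95% interval -0.23 to 0.18), the receptor Tfrc at 0.05 (95% interval -0.55 to 0.65) and the exporter Slc40a1 at -0.23 (95% interval -0.50 to 0.03). Slc25a37 stood at -0.48, with a wide interval of -1.08 to 0.12. In the transferrin group 4 of 5 members lay above 0, and in the storage group 4 of 5 lay below, against 52.7% of all tested genes below.

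**Figure D3:**
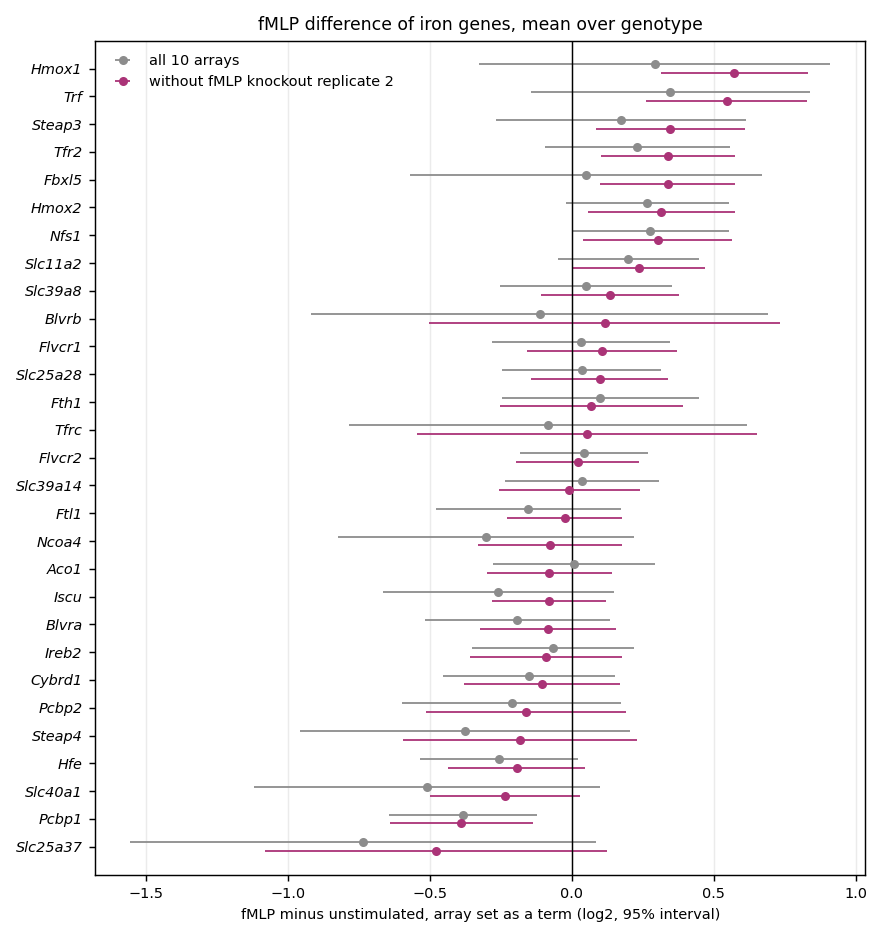
fMLP minus unstimulated (log2, horizontal axis, with 95% intervals) for the 29 tested iron genes, averaged over genotype with the array set as a term. Grey is the fit to all 10 arrays and purple the fit without fMLP knockout replicate 2; Hmox1 and Trf, at the top, are at 0.57 and 0.55 in the purple fit.

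The fMLP response was called different between the genotypes in 0 of 29 members, against 0% of all tested genes (0 called by limma, with 258 at an unadjusted p below 0.05). Unstimulated arrays of set 1 also enter this comparison. Of the members 0 reached an unadjusted p below 0.05. Below 0 lay 24 of 29, against 60.9% of all tested genes (51.6% without fMLP knockout replicate 2). The members' median was -0.22, against -0.07 over all tested genes. The furthest were Hmox1 (-0.59, SE 0.40), Fbxl5 (-0.59, SE 0.40), Slc40a1 (-0.58, SE 0.39) and Trf (-0.54, SE 0.32), with an adjusted p of 0.776 each. Without fMLP knockout replicate 2 they were -0.03, -0.01, -0.03 and -0.14, the members' median was -0.01 and 16 of 29 lay below 0. Without replicate 1 instead, 8 of 29 were called, against 35% of all tested genes.

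**Figure D4:**
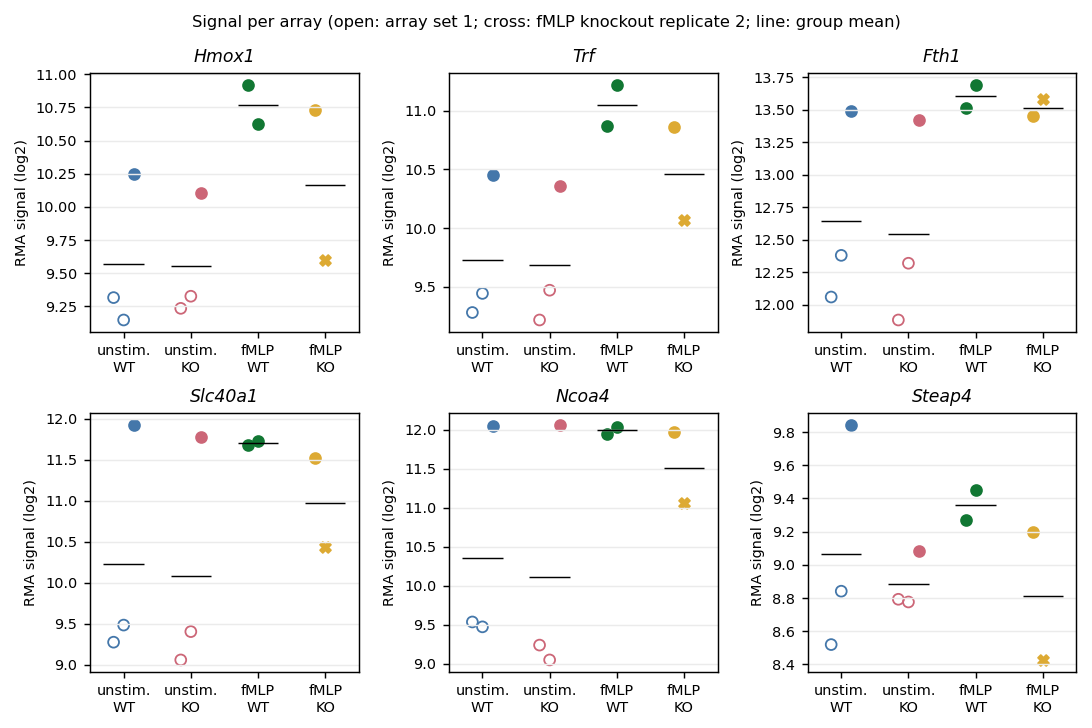
RMA signal (log2, vertical axis, which does not start at 0) of 6 iron genes on each array by group, with a line at the group mean. Open circles are array set 1 and the cross is fMLP knockout replicate 2; Hmox1 reads 9.60 on the cross against 10.62 to 10.92 on the other fMLP arrays, and Fth1 13.58 against 13.45 to 13.69.

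A wider list of iron genes, chosen by function, held 60 further genes of siderophore and lactoferrin handling, cluster assembly, hepcidin control, haem transport and scavenging and iron-responsive transcription, of which 54 had a probe set and 48 were tested. None was called in the 5 comparisons, 0 of 48 in each. At rest the furthest were Exoc6, an exocyst subunit linked to transferrin recycling (-0.35, SE 0.17), and Ltf, lactoferrin (-0.32, SE 0.21). After fMLP they were Slc22a17, reported as a lipocalin 2 receptor (1.08, SE 0.42, adjusted p = 0.416), and Nfe2l2, the transcription factor NRF2 (-0.91, SE 0.24, adjusted p = 0.416). Slc22a17 read 10.43 on fMLP knockout replicate 2 and 8.54 to 8.83 on the other fMLP arrays, and Nfe2l2 read 10.61 there and 11.30 to 12.06 on the others. Without that array the differences were 0.28 (SE 0.13) and -0.56 (SE 0.19), with adjusted p = 1 for both.

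Over both states the furthest of the wider list were Slc22a17 (0.61, and 0.21 without fMLP knockout replicate 2) and Pcbp4 (0.53, and 0.10 without it). For the difference of responses they were Slc22a17 (0.95, and 0.15 without it) and Nfe2l2 (-0.78, and -0.44 without it). For fMLP they were Ciao2a of the cytosolic cluster machinery (-0.70, and -0.54 without it) and the porphyrin transporter Abcb6 (0.57, and 0.42 without it). Without fMLP knockout replicate 2, 3 of 48 passed the test for fMLP, against the 10.1% of all tested genes. Lrp1, which takes up haem bound to hemopexin, fell by 0.50 (adjusted p = 0.0167), the cluster gene Glrx5 fell by 0.45 (adjusted p = 0.0404) and the cytosolic cluster scaffold Nubp2 rose by 0.43 (adjusted p = 0.0271).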

How the data were processed

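The deposited values are log2 RMA signals that the authors made in Affymetrix Expression Console, per the submitters' processing notes; the log base was taken from the range. RMA subtracts background, equalises the distributions of arrays processed together and summarises probes; whether all 10 arrays were processed together is not given in the sources used here. Of 35556 probe sets, 21789 name 1 gene; per gene the one with the highest mean was used. Genes with at least 2 arrays above the median of all values (8.18) were tested. All arrays were fitted with limma 3.58.1 in R 4.3.3, with 4 groups and the array set (interquartile range below or above 2) as terms, 5 residual degrees of freedom, two-sided moderated tests and Benjamini-Hochberg adjustment over all tested genes, called below 0.05. The scripts were tested on simulated data. Precision is limited by the number of arrays, which carry no read depth: an exact permutation test could not go below 0.1 for 3 against 3 arrays or 0.333 for 2 against 2.

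The members, roles, wider list and markers were chosen with earlier results of these data known. Named with values per array were members called in any comparison, the 4 furthest from 0 in each of the 5 comparisons, and, chosen after their values were seen, Fth1, Ftl1, Ireb2 and Tfrc. Same-number unstimulated arrays deviated together (correlations of deviations from the group mean 0.949, 0.929 and 0.988), as did arrays of set 1 with different numbers (0.866 and 0.874), and those after fMLP hardly (0.06). The unstimulated group means span both array sets, and arrays of different sets gave -0.957 to -0.929. The unstimulated correlations therefore follow the array set and do not show that same-number arrays are pairs. Alternatives were other normalizations, filters, probe set rules, moderation, array set handling, a replicate block and leaving out arrays.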

Additional observations from a re-analysis of the deposited data

Results flagged for a closer look

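Slc11a2 and Flvcr1 were the members whose knockout minus wild type difference lay above 0 in all 3 unstimulated pairs and below 0 in both fMLP pairs. They were picked by this pattern, so it adds no support to them, and its share over all tested genes was not counted. In fMLP pair 2 alone, 26 of 29 tested members lay below 0, against 59.4% of all tested genes. For Slc11a2 (DMT1) the pairs were 0.03, 0.07 and 0.12 at rest and -0.16 and -0.03 after fMLP, and the difference between the states was -0.17 (SE 0.16, adjusted p = 0.776 in limma). For Flvcr1, a haem exporter, they were 0.23, 0.01 and 0.01 and then -0.01 and -0.56, and the difference was -0.37 (SE 0.20, adjusted p = 0.776). With fMLP knockout replicate 2 left out, the differences were -0.09 (SE 0.16) for Slc11a2 and -0.22 (SE 0.19) for Flvcr1, with adjusted p = 1 for both. A second probe set of Flvcr1 stood at -0.05 at rest and -0.62 after fMLP. Neither gene passed the test.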

How the results depend on the processing

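The count of members called between genotypes at rest was 0 under every alternative run. Leaving out 1 array at a time gave 0 to 13 members called between genotypes after fMLP, 0 to 11 over both states, 0 to 7 for fMLP and 0 to 8 for the difference of responses. The highest counts in each came without fMLP knockout replicate 1, which leaves replicate 2 as the sole knockout array after fMLP, assumed to vary like the other groups, where 45.5%, 40%, 28.8% and 35% of all tested genes were called; without replicate 2 the fMLP count was 2. The replicate block in place of the array set left 0 members called in each genotype comparison and in the difference of responses. It changed no other call of a member. With it, 4, 2 and 2 members had an unadjusted p below 0.05 after fMLP, over both states and for the difference. Of all 14070 tested genes 2214, 1390 and 526 did. The fMLP comparison without that array, whose alternatives were all chosen after seeing the data, gave 2 members called (all tested genes 10.1%), 0 to 4 when a further array was left out (0.647% to 12.7%), 9 with array set 2 only (22.2%), 0 with no array set term (0.0498%) and 0 after quantile normalization again (1.27%). At rest, array set 2 only turned Ncoa4 to 0.0109, Pcbp1 to 0.0373 and Pcbp2 to 0.139, and Steap4 turned to 0.104 with array set 1 only or without replicate 3 of either or both genotypes (-0.359 to 0.104 over arrays left out). With no array set term the fMLP differences turned to 0.68 for Slc25a37, 1.19 for Slc40a1, 1.12 for Pcbp1 and 0.11 for Steap4, and Steap4 turned to 0.0575 without unstimulated wild type replicate 3 (-0.808 to 0.0575 over arrays left out). The cause of these turns was not tested; the set term is what holds set 1 out of that comparison. The array number, 2 or 3 a group, limits every interval.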
